A study of Mus musculus with 6 samples.

Results

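The genes described here are 8 members of the NADPH oxidase family and its subunits (Nox1, Nox4, Cyba, Cybb, Ncf1, Ncf4, Noxo1 and Noxa1) in cell lines from mouse liver tumors. They were taken by name from the 20856 genes with values in an RNA-seq table, and the family was chosen by the RPKM values of Nox4, which were lower in one genotype. The genotype difference of Nox4 is therefore given as a description with no test.

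The 6 lines came from liver tumors of C57BL/6 mice and fall into 2 genotypes of 3 lines each. All tumors were started by hydrodynamic tail vein injection, which delivers DNA to adult hepatocytes, of a transposon carrying Myc cDNA and a px330 plasmid for transient Cas9 and guide RNA. The guides targeted Trp53 in 3 lines (Myc; sgTrp53, labelled Myc;sgp53/Cas9) and Kmt2c, which encodes the histone methyltransferase MLL3, in the other 3 (Myc; sgKmt2c, labelled Myc;sgMll3/Cas9). The Myc transposon is thus shared by all lines, and no line in the comparison received Myc without one of these guides, so a change with Kmt2c editing and a change with Trp53 editing cannot be told apart. The lines were grown untreated on collagen and passaged until no fibroblasts were seen. The study's methods state that the 3 lines of a genotype came from separate mice. The labels of sgKmt2c replicates 2 and 3 are 2A and 2T1. The libraries held 5312182 to 6878625 reads on listed genes in the sgTrp53 lines and 3680068 to 4704539 in the sgKmt2c lines. Trp53 transcript lay at 17.2, 17.6 and 19.4 RPKM in the sgTrp53 lines and at 92.2, 124 and 121 RPKM in the sgKmt2c lines. Kmt2c transcript overlapped between the genotypes (24.2, 18.4 and 19.2 RPKM against 19.7, 25.0 and 9.51 RPKM), and the level of a transcript does not show whether its gene was edited. RPKM is a read count corrected for the length of the transcript in kilobases and for the total of reads on genes.

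NADPH oxidases move electrons from NADPH across a membrane onto oxygen and so make superoxide or hydrogen peroxide. Each enzyme is built on a catalytic NOX protein, which for NOX1, NOX2 (Cybb) and NOX4 is held in the membrane with p22phox (Cyba). NOX2, the phagocyte enzyme, also needs cytosolic organizer and activator subunits such as p47phox (Ncf1) and p40phox (Ncf4), together with a Rac GTPase. NOX1 uses the related pair NOXO1 and NOXA1, whereas NOX4 needs p22phox but none of the cytosolic subunits and releases mainly hydrogen peroxide. In liver, NOX2 is known from Kupffer cells and other phagocytes, and NOX4 from hepatocytes and stellate cells, where TGF-beta induces it.

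The windows of 250 bases before the RefSeq start site (GRCm38.p6) are shown for the 3 members whose levels did not overlap between the genotypes and for Cyba, the partner of Nox4. The Nox4 window lies at chr7:87246399-87246648 on the plus strand. The Cybb window is chrX:9469325-9469574, the Ncf1 window chr5:134229626-134229875 and the Cyba window chr8:122432941-122433190, all on the minus strand and written 5′ to 3′ along the gene. Capitals mark a GC box (GGGCGG, or CCGCCC where it lies on the other strand) or a CCAAT box (CCAAT).
Nox4: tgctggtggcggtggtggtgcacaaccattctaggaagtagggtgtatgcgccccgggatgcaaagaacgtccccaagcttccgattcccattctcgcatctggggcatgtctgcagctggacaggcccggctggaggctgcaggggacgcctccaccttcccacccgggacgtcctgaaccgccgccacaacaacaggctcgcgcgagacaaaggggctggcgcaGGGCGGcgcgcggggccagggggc
Cybb: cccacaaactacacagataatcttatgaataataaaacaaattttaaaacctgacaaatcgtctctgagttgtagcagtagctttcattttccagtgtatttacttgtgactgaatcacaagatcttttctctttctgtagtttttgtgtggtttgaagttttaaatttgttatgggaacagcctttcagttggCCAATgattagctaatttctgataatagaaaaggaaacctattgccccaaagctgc
Ncf1: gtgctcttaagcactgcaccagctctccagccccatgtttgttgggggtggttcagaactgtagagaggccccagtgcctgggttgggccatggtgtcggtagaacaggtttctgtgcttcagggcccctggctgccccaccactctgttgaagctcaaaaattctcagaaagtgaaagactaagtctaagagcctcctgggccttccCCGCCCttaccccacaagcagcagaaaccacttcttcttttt
Cyba: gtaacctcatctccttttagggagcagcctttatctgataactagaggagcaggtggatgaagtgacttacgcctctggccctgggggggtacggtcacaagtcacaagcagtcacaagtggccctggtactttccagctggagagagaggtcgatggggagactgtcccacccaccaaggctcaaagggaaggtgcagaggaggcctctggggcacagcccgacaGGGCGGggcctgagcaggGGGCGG
A window was found for 7 of the 8 members (all but Ncf4), and no stretch of 20 bases from any of them occurred in the coding transcripts of its gene in GENCODE M1. The Nox4 and Cybb windows lie inside the spans annotated for these genes, which have further transcripts that start upstream. The Nox4 window was rich in G and C (67.2% GC, 20 CpG) and held 1 GC box, 24 bases before the start. The Cyba window (60.0% GC, 6 CpG) held 2, at 24 and 6 bases before the start, and the Ncf1 window (54.4% GC, 2 CpG) held 1, at 42 bases. The Cybb window was poor in both (34.0% GC, 1 CpG) and held a CCAAT box 56 bases before the start. Over all 32851 windows of this length the median was 52.4% GC and 6 CpG, with a GC box on either strand in 32.7% and a CCAAT box in 33.8%. A MYC E-box (CACGTG) and an AP-1 motif (TGACTCA), present in 6.02% and 4.46% of all windows, were searched on both strands and matched in none of the 7 member windows, which says only that these letters are not there. A TATA motif (TATAAA) and a PU.1 core (GAGGAA), present in 12.4% and 23.3% of all windows, were searched in the same way. Among the 7 windows TATA matched in none, and the PU.1 core only in that of Nox1, 23 bases before the start.

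Nox4 and Cyba were the 2 members with more than trace levels, and Nox4 separated the genotypes. Reads per library were recovered from the RPKM values, which came in whole steps of a read. Together the 8 genes took 15.6, 7.91 and 20.1 reads per 1000000 reads on listed genes (RPM) in sgTrp53 replicates 1, 2 and 3, and 0.850, 0.815 and 7.26 in the sgKmt2c lines. The third sgKmt2c line was thus close to the second sgTrp53 line, whereas the first and second held 4 and 3 member reads in all. In the sgTrp53 lines Nox4 and Cyba made up 216 of 275 member reads (78.5%), and 127 of the 216 were of Nox4, the gene that chose the family. By line this share was 87.4%, 61.9% and 77.5%. In the sgKmt2c lines the 2 genes made up 28 of 38 member reads (73.7%), with 1 read of Nox4, and 27 of the 28 were in replicate 3. The intervals of the read ratios below cover counting error only and not the spread between lines.

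**Figure D1:**
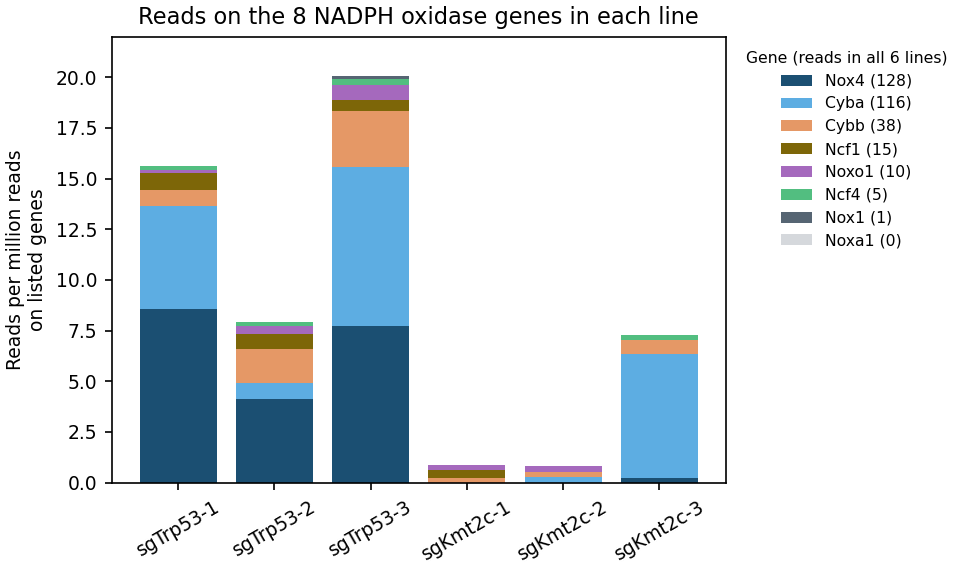
Stacked bars give reads per 1000000 reads on listed genes (RPM, y axis) for the 8 NADPH oxidase genes in each of the 6 lines (x axis), with the reads of each gene over all 6 lines in the legend. Nox4 (dark blue) fills much of each sgTrp53 bar and is 0, 0 and 1 read in the sgKmt2c lines, where the only tall bar (7.26) is mostly Cyba.

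Of the catalytic subunits, Nox4 (7:87246096-87398710 in GRCm38) had 52, 22 and 53 reads in the sgTrp53 lines and 0, 0 and 1 read in the sgKmt2c lines. In RPKM it lay at 14.4, 6.98 and 13.0 against 0, 0 and 0.395, with means of 11.5 ± 3.94 and 0.132 ± 0.228 (SD, n = 3 each). Every sgTrp53 line was above every sgKmt2c line, and the lowest sgTrp53 line, replicate 2, still held 22 reads. At the pooled sgTrp53 rate the sgKmt2c libraries, which are shallower, would have held 87.9 Nox4 reads instead of 1. The mean log2(RPKM + 1) was lower by 3.42 in the sgKmt2c lines, a value that depends on the added 1 since the sgKmt2c lines are near 0. With the transcript length listed for Nox4, 68.2% of genes had a lower mean RPKM in the sgTrp53 lines, and 28.6% in the sgKmt2c lines. A longer transcript length, as given below, would lower both ranks.

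The level of Nox4 per length depends on which transcript is used. The table divides Nox4 by 592 bases, the shortest of its 5 coding transcripts in GENCODE M1, whereas the longest has 3753. Over the 16705 genes matched to a coding transcript, the listed length was that of the longest in 56.9% and under 0.5 times that length in 9.57%. With the longest Nox4 transcript the levels became 2.27, 1.10 and 2.05 RPKM in the sgTrp53 lines and 0, 0 and 0.0623 RPKM in the sgKmt2c lines. The read counts and the separation of the genotypes do not change with the length. The order of Nox4 and Cyba does: the sgTrp53 mean of Nox4 was 11.5 RPKM, above Cyba at 6.01 RPKM, with the listed length, and 1.81 RPKM, below Cyba, with the longest.

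**Figure D2:**
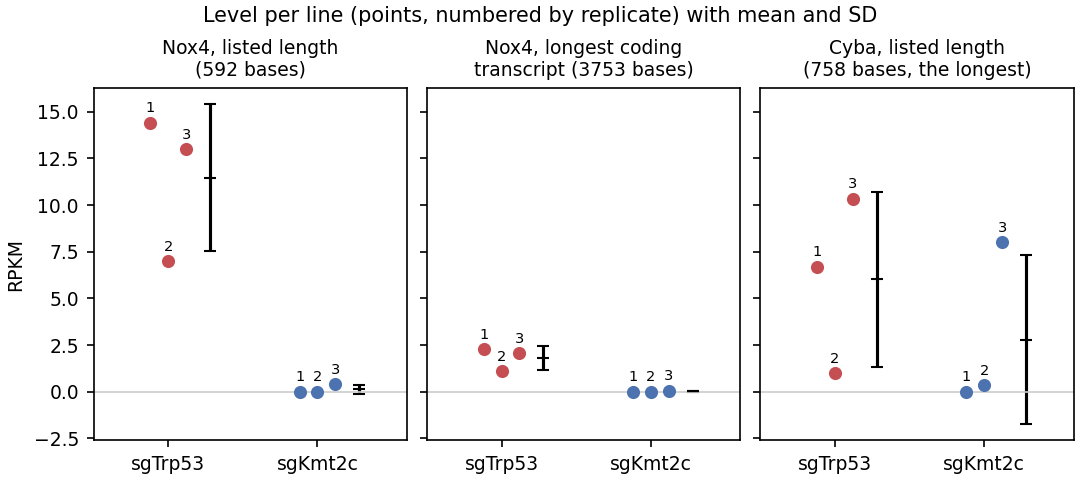
Points give RPKM (y axis) in each line, numbered by replicate, for Nox4 with its listed length, Nox4 with its longest coding transcript and Cyba, with the group mean and SD as a bar beside them. Nox4 separates the genotypes with either length, while Cyba overlaps, with sgKmt2c replicate 3 (8.02) above sgTrp53 replicates 1 and 2.

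Cybb (X:9435252-9487771), which encodes NOX2, was close to 0 in all lines, with 5, 9 and 19 reads in the sgTrp53 lines and 1, 1 and 3 in the sgKmt2c lines. Its levels of 0.173, 0.356 and 0.580 RPKM did not overlap with those of 0.0447, 0.0571 and 0.148 RPKM in the sgKmt2c lines, though the lowest sgTrp53 line and the highest sgKmt2c line nearly met. Pooled, 33 against 5 reads gave 4.57 times the RPM in the sgTrp53 lines (exact 95% interval 1.77 to 15.0). Nox1 (X:134086421-134221956), the colon enzyme, had a single read in all 6 libraries, in sgTrp53 replicate 3. A count of 0 in a pooled group allows up to 3 reads, which is 0.164 RPM in the sgTrp53 lines and 0.237 in the sgKmt2c lines, so a difference in Nox1 was not detectable at this depth.

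The membrane partner Cyba (8:122424772-122432940) varied within each genotype by more than the difference between their means (6.01 ± 4.71 against 2.79 ± 4.53 RPKM, SD, n = 3 each). It had 31, 4 and 54 reads (6.71, 0.992 and 10.3 RPKM) in the sgTrp53 lines and 0, 1 and 26 reads (0, 0.358 and 8.02 RPKM) in the sgKmt2c lines. Replicate 2 of the sgTrp53 lines was low, sgKmt2c replicate 3 lay between sgTrp53 replicates 1 and 3, and the genotypes overlapped. Cyba was the only member besides Nox4 that passed the filter of at least 1 RPKM in 3 lines. Its difference (sgKmt2c minus sgTrp53) was -1.28 on the log2(RPKM + 1) scale (95% interval -3.66 to 1.11) and did not pass the test (limma, adjusted p = 0.722), nor did it reach an unadjusted p under 0.05. Over all 11617 genes tested 0.129% were called in either direction, and 8.58% at an unadjusted p under 0.05. Without sgKmt2c replicate 3 the Cyba difference was -2.26 (limma, adjusted p = 0.351, unadjusted p = 0.033). In that fit 1477 of the 11617 genes were at an unadjusted p under 0.05. The line with the most Cyba among the sgKmt2c lines was also the only one with a Nox4 read, while sgTrp53 replicate 2 held 22 Nox4 reads and 4 Cyba reads.

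The cytosolic subunits were at or near 0. Ncf1 (5:134220053-134229625), the organizer of NOX2, had 5, 4 and 4 reads in the sgTrp53 lines and 2, 0 and 0 in the sgKmt2c lines, or 0.548, 0.502 and 0.388 RPKM against 0.284, 0 and 0. These values did not overlap, and the pooled ratio of 13 to 2 reads corrected for depth was 4.50 (exact 95% interval 1.02 to 41.1). Ncf4 (15:78244801-78262580), a further cytosolic subunit of NOX2, had 1, 1 and 2 reads against 0, 0 and 1. Noxo1 (17:24696234-24700529), the organizer of NOX1, had 1, 2 and 5 reads against 1, 1 and 0. For both the genotypes overlapped, and the ratio was 2.77 (0.274 to 136 for Ncf4 and 0.553 to 26.8 for Noxo1), so no difference could be told at this depth. Noxa1 (2:25085667-25095149), the activator of NOX1, had 0 reads in all 6 libraries. Reads were recovered for 7 members in at least 1 line, and all 7, which include Nox4, the gene that chose the family, and Nox1 with its single read, had a lower mean in the sgKmt2c lines. Over all 19183 genes with a read this direction held for 55.4%, and nothing is read from the members' count.

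Every sgKmt2c line lay below every sgTrp53 line for 3 of the 8 members (Nox4, Cybb and Ncf1), which includes the gene that chose the family, and for 8.84% of the 19183 genes with a read in at least 1 library. Nox1, Cybb, Ncf1 and Noxa1 overlap other annotated genes, and since the strand use of the counting is not given, reads of such neighbours cannot be told apart from theirs. Nox4, Cyba, Ncf4 and Noxo1 overlap none.

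The genes whose levels followed Nox4 most closely over the 6 lines were Lrp2, Fhod3, Wfdc17, Creb5 and Mical1, with Pearson correlations of log2(RPKM + 1) from 0.992 to 0.996. Lrp2, an endocytic receptor, lay at 35.9, 10.9 and 35.9 RPKM in the sgTrp53 lines and at 0.110, 0 and 0.908 RPKM in the sgKmt2c lines. Mical1, a flavoprotein that oxidizes actin, lay at 4.69, 4.11 and 5.29 RPKM against 0, 0 and 0.131. All of these were low in the 3 sgKmt2c lines, and with 2 groups of 3 lines a gene that separates the genotypes tends to correlate with Nox4: 68 of 11616 genes reached over 0.95. For Cyba the closest genes were Gm12751, Gm5593, Homer1, Ptcd3 and Fbxo21 (0.986 to 0.996). Homer1, a scaffold protein, lay at 17.6, 11.3 and 19.4 RPKM in the sgTrp53 lines and at 8.51, 8.68 and 20.6 in the sgKmt2c lines, low in the same 3 lines as Cyba. None of the 5 genes was shared between the 2 members.

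Markers of phagocytes, the cells known for NOX2, were measured beside Cybb, Ncf1 and Ncf4. Of 15 myeloid markers 11 had a lower mean in the sgKmt2c lines and 6 did not overlap in that direction (Csf1r, Adgre1, Tyrobp, Fcer1g, Laptm5 and Lyz2), beside 55.4% and 8.84% of all genes with a read. Among these 6 only Csf1r and Lyz2 passed the filter and were tested. Of the list 5 genes were tested, and 0 were at an adjusted p under 0.05 (limma, smallest 0.236, for Cd14). At an unadjusted p under 0.05 limma gave 2 lower and 1 higher, beside 8.58% of all genes tested. Lyz2, the macrophage lysozyme, lay at 29.0, 17.1 and 45.3 RPKM in the sgTrp53 lines and at 0, 0.214 and 12.4 RPKM in the sgKmt2c lines. Csf1r, the receptor that macrophages need to survive, lay at 10.0, 1.70 and 8.33 RPKM against 0.932, 0 and 0.967. Of the list 2 genes had a higher mean in the sgKmt2c lines: S100a8, a neutrophil gene, at 0, 0 and 1.20 RPKM against 21.8, 6.14 and 0, and Cd14. Cd14, the lipopolysaccharide co-receptor, lay at 11.4, 11.6 and 13.6 RPKM in the sgTrp53 lines and at 70.3, 30.7 and 34.5 in the sgKmt2c lines. The pan-leukocyte gene Ptprc had 6 reads in all lines together, and Mpo and Clec4f, which mark neutrophils and Kupffer cells, had 0. The summed level of the list did not separate the genotypes (36.6 to 81.0 RPKM in the sgTrp53 lines and 42.8 to 98.8 in the sgKmt2c lines). Cd14 alone made up most of the sum in each sgKmt2c line (70.3 of 98.8, 30.7 of 42.8 and 34.5 of 51.8 RPKM). The sum therefore does not describe the other markers of the list. The part of myeloid cells in the NOX2 values was not tested, and in bulk RNA fewer cells of a type and less RNA per cell cannot be told apart.

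Markers of fibroblasts and stellate cells, which can carry NOX4, also had lower means in the sgKmt2c lines. Of 15 genes 14 had a lower mean there, beside 55.4% of all genes with a read, and 2 did not overlap (Dcn and Tagln), which is near the 8.84% of all genes. Lrat, the defining gene of quiescent stellate cells, had 0 reads in every line. The summed level was 28.1, 1113 and 376 RPKM in the sgTrp53 lines and 0.683, 161 and 129 in the sgKmt2c lines. Of these genes 7 were tested, and all 7 were lower in the sgKmt2c lines (median log2 difference -2.04, 0 at an adjusted p under 0.05). Col1a1 lay at 20.9 ± 19.5 RPKM in the sgTrp53 lines and 1.32 ± 0.968 in the sgKmt2c lines (SD, n = 3 each). Col1a2 lay at 64.0 ± 56.5 against 4.45 ± 4.47, and Col3a1 at 280 ± 463 against 69.2 ± 60.8. By line, sgTrp53 replicate 1 had the highest Nox4 (14.4 RPKM) with the lowest sum of its genotype. The first sgKmt2c line had 0 Nox4 reads with the lowest sum of all, and sgKmt2c replicate 2 had 0 Nox4 reads with Col3a1 at 115 RPKM. The part of fibroblasts and stellate cells in the Nox4 values was not tested. All 8 epithelial markers had a higher mean in the sgKmt2c lines, while 55.4% of all genes with a read had a lower one. None of the 8 separated the genotypes, and the 7 tested had a median log2 difference of 1.42 (0 at an adjusted p under 0.05). The first sgKmt2c line stood apart in its epithelial genes, with Krt8 at 1662 RPKM against 9.27 to 431 in the other lines. Of 10 hepatocyte markers 8 had a higher mean in the sgKmt2c lines and none separated the genotypes. Their sum was 37.5, 18.9 and 30.02 RPKM in the sgTrp53 lines and 1319, 3.36 and 210 RPKM in the sgKmt2c lines, so the second sgKmt2c line was the lowest of all and the other 2 sgKmt2c lines were the highest. Hnf4a, a transcription factor of hepatocytes, lay at 24.7, 3.49 and 15.8 RPKM against 1186, 0.629 and 170. Alb, the defining hepatocyte gene, was at 0.644 to 4.36 RPKM in all 6 lines. The part of hepatocyte identity in the Nox4 values was not tested. The 7 endothelial markers summed to at most 1.27 RPKM in any line.

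**Figure D3:**
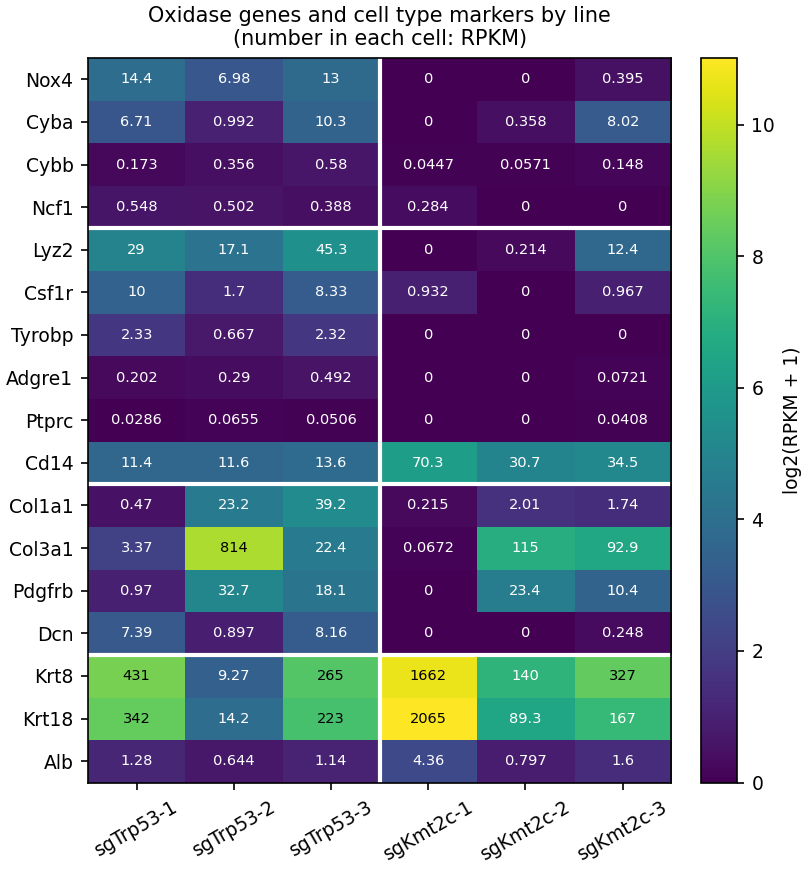
Each cell gives the RPKM of a gene (row) in a line (column), colored by log2(RPKM + 1), for 4 oxidase genes followed by myeloid, fibroblast and epithelial or hepatocyte markers. Lyz2, Csf1r and Tyrobp are lower in the sgKmt2c lines and Cd14 is higher. Col1a1 and Col3a1 have lower means in the sgKmt2c lines, while Col3a1 is lowest within the sgTrp53 lines in replicate 1, where Nox4 is highest.

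Among the other family genes described here, the maturation factor was above trace levels. Cybc1 (listed as BC017643), a chaperone for the NOX2 and p22phox pair, lay at 12.7, 19.4 and 11.1 RPKM in the sgTrp53 lines and at 14.0, 18.5 and 11.7 in the sgKmt2c lines. It differed by 0.05 on the log2 scale (95% interval -0.64 to 0.74, limma adjusted p = 0.960), a direction that turned when some lines were left out. Duox1, which makes hydrogen peroxide in thyroid and airway, had 6 reads in all lines, and Duox2, Duoxa1 and Duoxa2 had 0. Rac1, the GTPase that NOX1 and NOX2 need, lay at 88.9, 87.0 and 104 RPKM in the sgTrp53 lines and averaged 88.9 ± 12.1 RPKM (SD, n = 3) in the sgKmt2c lines (log2 difference -0.07, 95% interval -0.52 to 0.37, adjusted p = 0.910). Its blood cell relative Rac2 had 9 reads in the sgTrp53 lines and 1 in the sgKmt2c lines. Poldip2, which binds p22phox and raises NOX4 activity, lay at 61.1 ± 12.0 and 60.3 ± 9.12 RPKM (SD, n = 3 each; log2 difference -0.01, 95% interval -0.54 to 0.52, adjusted p = 0.989). The signs of the Rac1 and Poldip2 differences turn with median-of-ratios scaling.

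Across 6 lists of surrounding genes, covering these relatives, Rac GTPases and their regulators, other partners and kinases, peroxide handling, NADPH supply and the TGF-beta response, 75 of 76 genes were in the table and 62 were tested. None was called by limma at an adjusted p under 0.05 (smallest 0.461) or by limma voom on the recovered reads. At an unadjusted p under 0.05 limma gave 5 lower and 1 higher (9.68%) and voom gave 5 in all, beside 8.58% of all genes with limma. By sign 33 were higher and 29 lower, with a median log2 difference of 0.03, beside -0.09 over all 11617 genes. The groups did not overlap for 9 genes in the lower direction (14.5%, beside 10.4% of all genes tested) and for 2 in the higher, a direction in which 5.72% of all genes tested did not overlap.

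None of the genes named in these lists passed the test. Among 11 tested Rac genes (median -0.07), Prex2 and Vav3, exchange factors that load Rac with GTP, had the largest differences. Prex2 lay at 6.08, 1.73 and 15.0 RPKM in the sgTrp53 lines and at 0, 2.77 and 1.02 in the sgKmt2c lines (log2 difference -1.78, adjusted p = 0.587). Vav3 lay at 4.18, 1.69 and 1.68 RPKM against 0.0846, 0 and 1.54 (-1.25, adjusted p = 0.568). The most abundant was Arhgdia, which keeps Rac in the cytosol, at 334 ± 46.3 and 383 ± 92.9 RPKM. Among 11 partners and kinases (median 0.25), the scaffold Sh3pxd2b, a relative of the NOX organizers, lay at 33.0, 32.3 and 35.3 RPKM against 26.8, 12.0 and 19.7, with no overlap (-0.82, 95% interval -1.54 to -0.11, adjusted p = 0.542). The kinase Pak1 differed by 0.98 through sgKmt2c replicate 1 (15.9 RPKM, others 0.552 to 2.04), and by -0.017 without it. The most abundant partner was P4hb, protein disulfide isomerase, at 321 ± 86.1 and 422 ± 221 RPKM.

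Among 13 genes that handle superoxide and peroxide (median -0.14), Gpx3, a secreted glutathione peroxidase, lay at 205, 391 and 278 RPKM in the sgTrp53 lines and at 0.256, 284 and 429 in the sgKmt2c lines. Its difference of -2.40 (adjusted p = 0.747) rested on sgKmt2c replicate 1 and was 0.31 without it. Prdx5, a mitochondrial and peroxisomal peroxiredoxin, lay at 36.8 ± 4.11 and 65.8 ± 32.0 RPKM (0.70, adjusted p = 0.639, with 0.36 without sgKmt2c replicate 1 and 1.09 without replicate 3), and Prdx1, the most abundant, at 835 ± 102 and 826 ± 127 RPKM. Among 14 genes that supply NADPH (median 0.16, 11 higher and 3 lower), Taldo1, the transaldolase of the pentose phosphate pathway, lay at 49.1, 43.9 and 45.9 RPKM against 117, 60.5 and 86.6. It did not overlap between the genotypes (0.86, 95% interval 0.24 to 1.49, adjusted p = 0.461). Aldh1l1, a folate enzyme that yields NADPH, differed by -1.76 (adjusted p = 0.551) on 28 reads against 1, of which 21 were in sgTrp53 replicate 2. Tkt, the transketolase of the same pathway as Taldo1, was the most abundant at 2112 ± 228 and 2204 ± 872 RPKM.

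Of 12 genes of the TGF-beta response, the pathway known to induce Nox4, 5 were higher and 7 lower, with a median of -0.41. In the main fit 0 passed the test at an adjusted or unadjusted p under 0.05. Smad2, Smad3 and Smad4, which carry the signal to the nucleus, did not overlap in the lower direction (3 of 12 genes, beside 10.4% of all genes tested). Smad3 lay at 25.3, 39.0 and 31.8 RPKM in the sgTrp53 lines and at 21.3, 22.5 and 23.3 in the sgKmt2c lines. Smad7, also in the list, differed in the other direction (0.55, adjusted p = 0.747). The part of the TGF-beta response in the Nox4 values was not tested. The ligand Tgfb3 lay at 3.78, 33.4 and 7.51 RPKM against 0, 11.3 and 1.04 (-1.93, adjusted p = 0.651). The ligand Tgfb1 differed in the other direction, at 6.26, 25.1 and 25.2 RPKM against 20.9, 62.6 and 33.8 (1.10, adjusted p = 0.650, and 0.48 without sgTrp53 replicate 1).

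**Figure D4:**
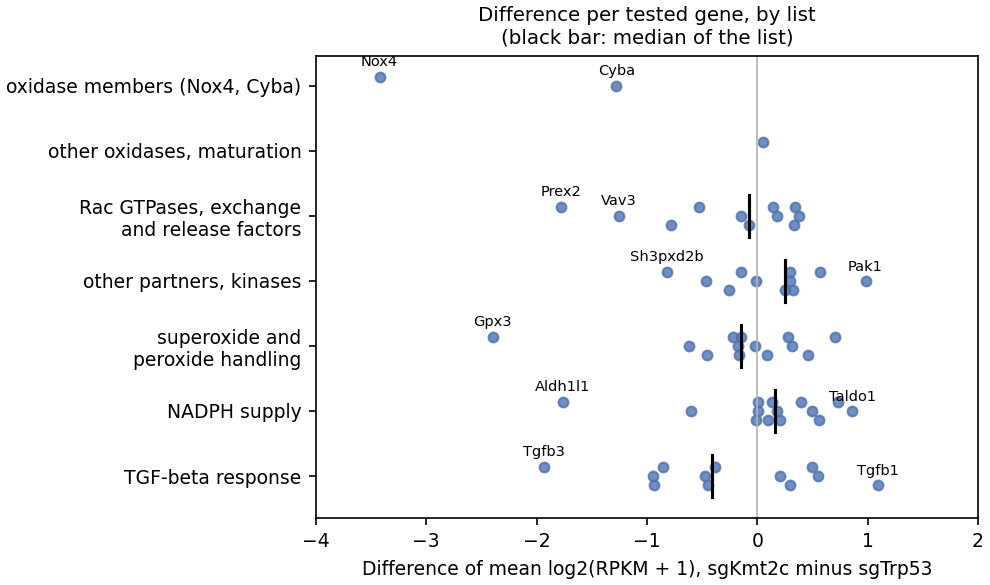
Each point is a tested gene, placed by its difference of mean log2(RPKM + 1), sgKmt2c minus sgTrp53 (x axis), in its list (y axis), with the median of the list as a black bar. Nox4 lies at -3.42 with its listed length (it would be -1.43 with its longest coding transcript), and the medians of the 5 surrounding lists with a bar run from -0.41 to 0.25.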

How the data were processed

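RNA-seq values of 6 cell lines were used, grouped by genotype from the sample labels. The authors removed adaptors with Trimmomatic, used STAR to align reads to GRCm38, counted reads on genes by HTSeq (versions and strand setting not given in the sources used here) and deposited RPKM values (called FPKM in the methods), which divide by 1 transcript length per gene. The table has 21065 rows, of which 209 hold no values, and 6 sample columns of no sample analysed here, which were not used. A table of the authors' DESeq2 1.8.2 comparison (mean counts, log2 fold changes with errors, statistics and p-values) was not used.

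RPKM times the listed length gave whole reads for 100% of values within 0.01 of a read. The test was limma 3.58.1 (R 4.3.3, lmFit, eBayes with trend) on log2(RPKM + 1) for the 11617 genes with at least 1 RPKM in at least 3 lines, with Benjamini-Hochberg adjustment over all of them. The code was also run on simulated counts with large planted changes and a fixed spread. That run does not show how the test behaves with the spread between these lines. Fold changes on this scale understate those of low genes. Pooled reads were compared by exact conditional intervals (SciPy 1.17.1). Alternatives changed the pseudocount, filter, scaling, test, lines and, chosen after seeing the data, the transcript length.

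The members, gene lists and markers were chosen with earlier results of these data known. The text names all 8 members, listed genes past the threshold (otherwise the 2 largest differences and the most abundant gene of each list), the targeted genes and the 5 closest correlates of each tested member; 2 genes of the lists are not reported here. Rac1, Rac2, the Duox genes, Poldip2, the Smad genes and the markers were named for their roles after their values were seen. Same-numbered lines deviated together with correlations of 0.192, 0.399 and 0.0316, and different-numbered lines with -0.284 to 0.152. These values do not settle whether the numbers pair the lines. The labels state no pairing, so the main fit used none, and a fit with the number as a block is given below.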

Additional observations from a re-analysis of the deposited data

How the results depend on the processing

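Cyba stayed uncalled in 18 alternatives (log2 difference -2.57 to -0.67, adjusted p 0.351 to 0.927), as did all genes of the 6 lists. The log2 difference of Nox4, -3.42, was -6.02 and -4.24 with pseudocounts of 0.1 and 0.5, -4.15 with TPM, -5.28 with voom, -1.43 with the longest coding transcript and -3.72 to -3.24 with 1 line left out. The share of Nox4 and Cyba among member reads in the sgTrp53 lines was 73.9% to 81.5% with 1 of these lines left out.

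The count of all genes at an adjusted p under 0.05 was 15, and 6 with a pseudocount of 0.1, 5 with no filter, 4 with voom, and 0 with sgKmt2c replicates 2 and 3 as a single sample (1031 at an unadjusted p under 0.05). It was 0 to 8 with 1 line left out (8 without sgKmt2c replicate 1, 0 without each other line; 563 to 1477 at an unadjusted p under 0.05). The causes were not tested. With the replicate number as a block it was 0 (1085 at an unadjusted p under 0.05) and the Nox4 difference was -3.42. The block changed no call of Cyba or the listed genes at an adjusted p under 0.05. At an unadjusted p the block fit (limma) put Tgfb3 at 0.0012 and Tgfb1 at 0.015, in opposite directions (adjusted p = 0.218 and 0.401).

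The 17 named listed genes gave 305 values under the alternatives, of which 281 kept their direction and 24, over 8 genes, reversed. With median-of-ratios scaling, which moved the median of all genes from -0.086 to -0.015, these were Rac1 (0.00497), Poldip2 (0.067), Prdx1 (0.059) and Tkt (0.068). With quantile normalization Poldip2 was 0.017, and with sgKmt2c replicates 2 and 3 as a single sample Prdx1 was 0.035 and Tkt 0.15. With 1 line left out the range was -0.14 to 0.043 for Rac1, -0.18 to 0.096 for Poldip2, -0.13 to 0.098 for Prdx1, -0.30 to 0.29 for Tkt, -0.12 to 0.27 for Cybc1, -0.017 to 1.55 for Pak1, -3.90 to 0.31 for Gpx3 and -0.099 to 0.63 for P4hb. The named genes that did not reverse ranged, with 1 line left out, from -2.43 to -1.16 (Prex2), -1.68 to -0.94 (Vav3), -1.07 to -0.53 (Sh3pxd2b), 0.36 to 1.09 (Prdx5), -2.22 to -1.03 (Aldh1l1), 0.63 to 1.10 (Taldo1), 0.48 to 1.46 (Tgfb1), -2.97 to -1.12 (Tgfb3) and 0.0015 to 0.35 (Arhgdia). Aldh1l1 gave no value with the longest coding transcript, since it then missed the filter. Depth limits the cytosolic subunits, Nox1 and Noxa1 to a handful of reads.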
